A study of Mus musculus with 4 samples.

Results

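In all, 9 genes of the insulin-like growth factor (IGF) system were followed through single-nucleus RNA sequencing of the mouse hypothalamus: the ligands Igf1 and Igf2, the receptors Igf1r and Insr, and the binding proteins Igfbp2, Igfbp3, Igfbp4, Igfbp5 and Igfbp7. They were chosen by symbol and are 9 of the 33696 genes listed in the files, and 8 of the 9 had counts. The 4 libraries came from wild type C57BL/6J mice kept conventionally (SPF). Libraries vehicle 1 and vehicle 2 were from mice infused with vehicle, water with 1% DMSO. Libraries ImP 3 and ImP 4 were from mice infused with imidazole propionate (ImP), a histidine product of gut bacteria, at 350 µg per day. Mice of both groups carried an osmotic pump in the peritoneal cavity for 2 weeks. The labels read here give no age or sex and do not say that each library is 1 animal. P-values therefore measure no more than the spread between libraries, which may be technical. The edgeR tests below pool that spread over genes, so their very small p-values do not rest on a gene's own 4 libraries alone.

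IGF-1 and IGF-2 are small secreted growth factors related to insulin. They act through the IGF-1 receptor, a tyrosine kinase that signals through the IRS adaptors, PI3K, Akt and the MAP kinases, while insulin acts mainly through the closely related insulin receptor. The binding proteins hold the ligands in extracellular fluid and set how much reaches the receptors; Igfbp7 binds IGFs weakly and is best known from vessel walls. In the brain, IGF-1 comes from the blood and from local cells, and the endothelium of the blood-brain barrier carries IGF-1 receptors.

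Each kept nucleus was assigned to a class from 8 marker genes per class, none of them a member. The 4 libraries held 10917, 13023, 14757 and 15725 kept nuclei (order vehicle 1, vehicle 2, ImP 3, ImP 4, used throughout), with medians of 3757, 3179, 2852 and 2820 UMIs (unique molecular identifiers, counted molecules) each. Both ImP libraries therefore held more nuclei of lower depth. Neurons made up 7457, 8673, 9450 and 9374 nuclei, while endothelial cells numbered 13, 19, 12 and 12 and mural cells 11, 8, 9 and 16. ImP 4 stood apart through 977 nuclei gated as pituitary against 8, 4 and 8, and fibroblast nuclei numbered 3 and 5 in vehicle against 18 and 18 in ImP. Between 39 and 76 barcodes were shared by any pair of libraries. Levels are CPM, UMIs scaled to 1000000 per library and class, and describe nuclei, not whole cells.

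The start sites of 3 members with marked patterns are shown for context, taken from RefSeq at build GRCm38.p6, 250 bases before each start and read on the gene's strand. Capitals mark the GC box GGGCGG or its reverse complement CCGCCC, which Sp1-type factors bind. Igf1r and Igfbp7 were highest in vascular nuclei, and among neuron types Igf1 was highest in melanin-concentrating hormone neurons. Igf1r lies at chr7:67952007-67952256 on the + strand, Igfbp7 at chr5:77408046-77408295 on the - strand and Igf1 at chr10:87860861-87861110 on the + strand.
Igf1r: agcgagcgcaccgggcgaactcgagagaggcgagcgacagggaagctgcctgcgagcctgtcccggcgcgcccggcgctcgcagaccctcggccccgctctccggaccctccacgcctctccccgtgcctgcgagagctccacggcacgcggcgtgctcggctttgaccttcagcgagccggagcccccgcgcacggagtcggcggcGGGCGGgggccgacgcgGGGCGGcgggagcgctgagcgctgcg
Igfbp7: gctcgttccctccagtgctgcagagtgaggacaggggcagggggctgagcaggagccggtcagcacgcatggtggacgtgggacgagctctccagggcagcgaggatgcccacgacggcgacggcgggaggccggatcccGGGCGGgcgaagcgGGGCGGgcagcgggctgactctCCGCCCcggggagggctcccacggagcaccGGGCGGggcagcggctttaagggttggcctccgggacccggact
Igf1: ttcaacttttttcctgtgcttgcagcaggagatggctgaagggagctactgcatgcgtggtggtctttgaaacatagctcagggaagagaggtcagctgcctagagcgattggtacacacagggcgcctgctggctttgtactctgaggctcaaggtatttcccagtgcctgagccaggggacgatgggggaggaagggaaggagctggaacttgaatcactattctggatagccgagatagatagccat
The windows of Igf1r and Igfbp7 are 77.6% and 74.0% GC with 2 and 4 GC boxes, and that of Igf1 is 52.8% GC with none. Over 32851 promoter windows of the same length the median GC content is 52.4% and 32.7% hold a GC box, so the Igf1 window lies near the median. A match describes letters and is not a bound site.

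Igf1 transcripts were found mostly in neurons, and among neuron types at by far the highest level in melanin-concentrating hormone neurons. Neurons held 448, 293, 425 and 354 Igf1 UMIs, or 11.1, 7.29, 10.9 and 9.22 CPM. They gave 95.5%, 89.3%, 90.8% and 85.5% of all Igf1 UMIs of kept nuclei, against 84.9%, 83.1%, 80.0% and 75.0% of all UMIs. Oligodendrocytes held 1.06, 2.70, 3.31 and 1.57 CPM from 2, 5, 7 and 3 UMIs. Astrocytes held 1.60 CPM on average, and no Igf1 UMI was seen in endothelial, tanycyte or ependymal nuclei. Those classes held 56, 94 and 33 nuclei in that order, too few for zeros to set them below neurons. Neurons were above oligodendrocytes and astrocytes in 4 of 4 libraries, where an exact paired permutation test gave a two-sided p of 0.125, the smallest that 4 libraries allow. Igf1 fell under the count minimum of the fit over classes and was not tested there. With no count minimum edgeR gave a log2 difference of 4.71 between neurons and the mean of the other classes (SE 0.733, adjusted p = 1.3e-09), a fitted size that is no bound because 3 of those classes held no Igf1 UMI. Fibroblasts, in no fit, held 2, 0, 3 and 4 Igf1 UMIs in 44 nuclei. Their mean was 134 CPM, above that of neurons as a whole, with libraries from 0 to 332 CPM. These UMIs are too few to rank fibroblasts against melanin-concentrating hormone neurons.

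Pmch encodes melanin-concentrating hormone, made by lateral hypothalamic neurons that promote feeding and sleep. A neuron was gated as Pmch at 10 or more Pmch UMIs, which took 40, 25, 41 and 40 nuclei, or 0.536%, 0.288%, 0.434% and 0.427% of neurons. These nuclei held 122, 52, 70 and 68 Igf1 UMIs, which was 27.2%, 17.7%, 16.5% and 19.2% of the neuronal Igf1 UMIs. Their Igf1 level was 334, 310, 263 and 278 CPM against 8.15, 6.02, 9.16 and 7.50 CPM in all other neurons, so the groups did not overlap in any library. With library as a block the log2 difference was 5.31 (SE 0.161, edgeR quasi-likelihood test, adjusted p = 6.1e-232), and in this type 4.29% of all genes tested were called higher. Leaving out each library in turn kept it between 5.21 and 5.43. Pmch nuclei were deep, with median UMIs of 8294, 6449, 5894 and 5713.5 against 4776, 4111, 3710 and 3668 in other neurons. Against other neurons at or above their library's median depth, the log2 difference was 5.24.

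At the level of single nuclei, 30 of 40, 18 of 25, 28 of 41 and 25 of 40 Pmch neurons held an Igf1 UMI, or 75.0%, 72.0%, 68.3% and 62.5%. Oligodendrocytes, where Igf1 RNA was scarce, had a UMI in 0.178%, 0.405%, 0.350% and 0.235% of nuclei at median depths of 1454, 1314, 1316 and 1358 UMIs. Thinned to 1000 UMIs per nucleus, 26.0%, 23.4%, 21.3% and 21.6% of Pmch nuclei kept an Igf1 UMI. Of the 29 nuclei with 5 or more Igf1 UMIs, 22 were Pmch neurons, and of the 116 nuclei with 3 or more, 45 were. Igf1 was thus frequent but not universal in the gate, and part of the Igf1-rich nuclei lay outside it.

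Cartpt neurons, which make the CART peptide, also stood high for Igf1 at 45.3, 16.3, 71.6 and 59.6 CPM (log2 difference 2.35, adjusted p = 9.3e-23, edgeR). Of the 368 Cartpt nuclei 38 were also Pmch neurons, a known overlap of the peptides in lateral hypothalamic cells. The Cartpt nuclei outside the Pmch gate held 7, 1, 1 and 4 Igf1 UMIs, or 12.2, 2.55, 2.90 and 8.28 CPM. With Pmch nuclei left out of both sides, an alternative chosen after seeing the data, the difference was -0.13 (SE 0.451, adjusted p = 0.962), so the Cartpt signal was carried by nuclei in both gates.

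**Figure D1:**
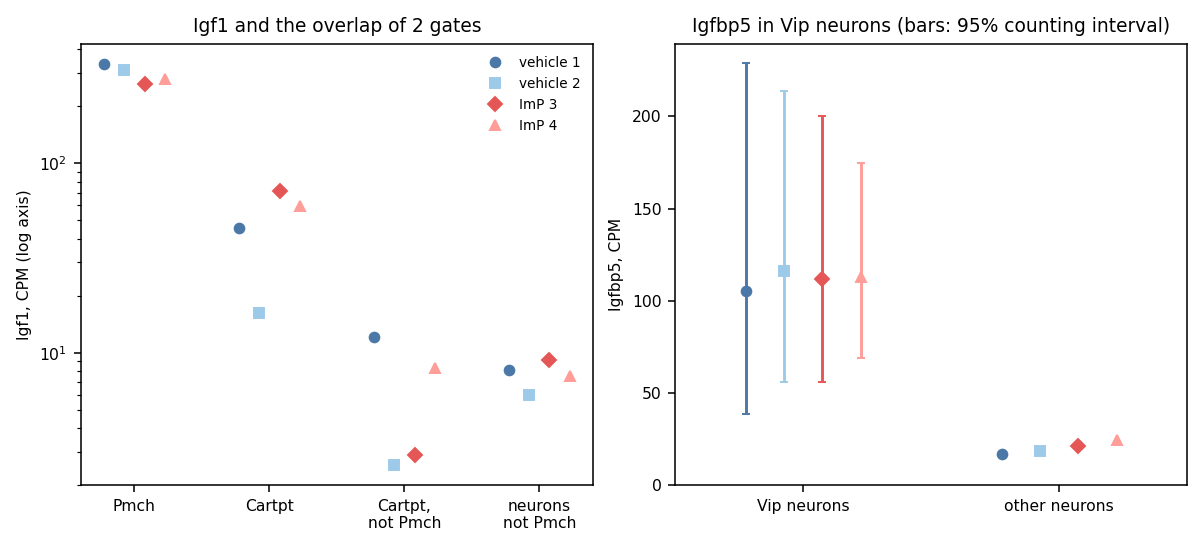
Left, Igf1 in CPM on a log axis in Pmch neurons, Cartpt neurons, Cartpt neurons outside the Pmch gate and all neurons outside it; right, Igfbp5 in CPM on a linear axis in Vip neurons (bars are 95% exact Poisson intervals, counting error only) and other neurons. Each point is 1 library; Cartpt neurons outside the Pmch gate lie between 2.55 and 12.2 CPM for Igf1, and Vip neurons lie between 105 and 116 CPM for Igfbp5.

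Over 14 neuron types, 17 of 112 member tests were called, against 7.29% of the tests of all genes. The share of all genes called was 9.96% in Pmch, 15.1% in Avp, 11% in Hcrt, 11.4% in Oxt, 19.7% in Hdc, 4.74% in Gal, 5.05% in Nts and 6.06% in Trh neurons. It was 4.02% in Tac1, 5.61% in Cartpt, 1.87% in Agrp, 3.65% in Pomc, 2.7% in Sst and 1.46% in Penk neurons. The Pomc gate took 45, 49, 27 and 390 nuclei and the Gal gate 128, 125, 142 and 240. Of oligodendrocytes, 0%, 0%, 0.070% and 3.91% also passed the Pomc minimum. For Gal these shares were 0.178%, 0.081%, 0.280% and 0.860%. The Pomc and Gal groups of ImP 4 may thus hold nuclei of other kinds, and the part of pituitary RNA in them was not tested.

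The low end of the Igf1 range was made of peptidergic neurons of other kinds. Avp neurons, which make vasopressin for water balance, held 2.27, 2.11, 2.19 and 0 CPM from 3 UMIs in all, against 11.2, 7.35, 11.0 and 9.34 CPM in other neurons (log2 difference -2.58, SE 0.642, adjusted p = 7.5e-04, edgeR). That call held in each of its 11 alternatives, with -2.26 and adjusted p = 0.00814 when Pmch nuclei were left out. Hcrt neurons, which make orexin for arousal, held no Igf1 UMI in 100 nuclei. With a floor of 3 counts over the group, Igf1 was at least 2.11-fold lower there than in other neurons (edgeR, adjusted p = 0.017, which rose to between 0.055 and 0.099 without any 1 library). Those other neurons include the Igf1-rich Pmch nuclei, and no bound without them was computed.

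Oxt neurons (oxytocin) held 0, 3.49, 2.99 and 0 CPM and Gal neurons (galanin) 5.38, 1.47, 1.56 and 6.43 CPM, with adjusted p = 0.022 and 0.015. Without Pmch nuclei these became 0.081 and 0.193, and single libraries also ended both calls (up to 0.141 and 0.186 without 1 library). Agrp neurons, the hunger-driving cells of the arcuate nucleus, lay at 8.37, 17.8, 7.78 and 14.7 CPM and were not called. Every library of Pmch neurons lay above every library of the other 13 types tested.

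Igf2, the second ligand, had 0 UMIs in every barcode of every library. Its row is no measure of absence. In the GENCODE M21 annotation (GRCm38) the same-strand gene Gm49394 covers 99.98% of the Igf2 gene span and 62.8% of its exonic bases, 3596 of 5723, and Gm49394 and Igf2os also held 0 UMIs. Reads that fall in both genes cannot be assigned to one, and the part of this overlap in the zeros was not tested. Igf2 is known from meninges and choroid plexus.

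**Figure D2:**
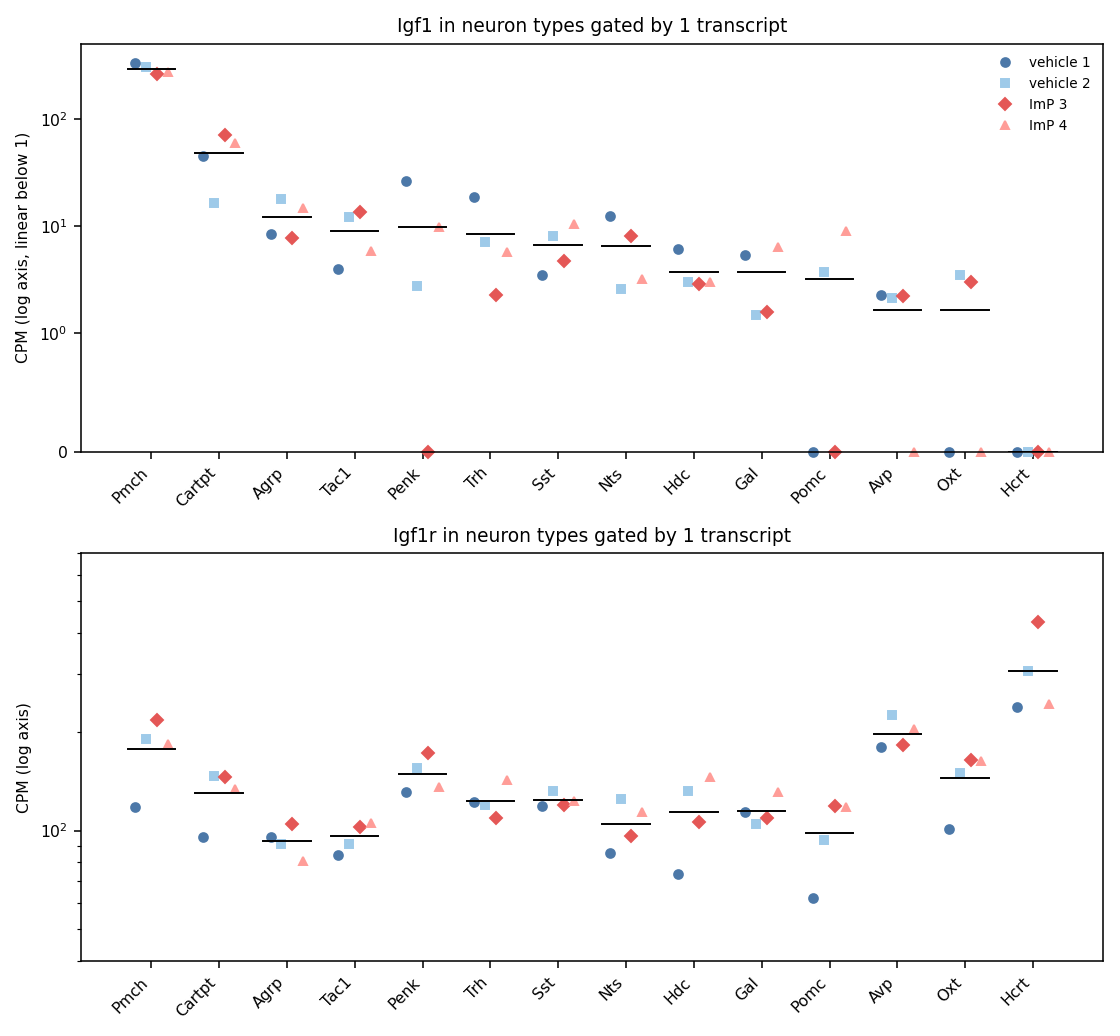
Igf1 (top, log axis that is linear below 1 CPM) and Igf1r (bottom, log axis) in CPM in 14 neuron types, 1 point per library with a horizontal line at the mean of 4 libraries. Pmch neurons lie between 263 and 334 CPM for Igf1, and Hcrt neurons between 239 and 434 CPM for Igf1r.

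Igf1r, the receptor of both ligands, was highest in endothelial nuclei. There it reached 3585, 2476, 2338 and 1734 CPM from 55, 58, 30 and 29 UMIs. All other tested classes averaged between 125 CPM in neurons and 328 CPM in ependymal nuclei, and no library of endothelial nuclei overlapped them. The endothelial level exceeded the mean of the other 8 classes by a log2 difference of 3.02 (SE 0.194, adjusted p = 2.3e-25, edgeR; 7.7% of genes were called higher in this class). Leaving out each library gave values between 2.85 and 3.28. In both directions 14.7% of genes were called in endothelial, 9.34% in mural, 15.9% in tanycyte and 9.71% in ependymal nuclei, and 56.9%, 37.5%, 49.2%, 34.2% and 39.2% in neurons, astrocytes, oligodendrocytes, precursors and microglia. Each class contrast is read against the median over all genes, which ran from -0.71 in mural to 0.41 in oligodendrocyte nuclei.

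Few nuclei carry this endothelial value, and endothelial nuclei gave 0.386% to 0.879% of the Igf1r UMIs. Neurons, at 116, 126, 122 and 135 CPM, gave 69.0% to 76.4% of them and were lower than the mean of the other classes (-0.94, adjusted p = 2.8e-10). Oligodendrocyte precursors were lower too (-0.53, adjusted p = 0.0016), but this reversed to 0.08 with mitochondrial shares of at most 1% and single libraries moved its adjusted p up to 0.199. In the order of mean levels, ependymal, tanycyte, astrocyte, oligodendrocyte, microglia, mural and precursor nuclei did not differ from the next in line (adjusted p between 0.239 and 0.999), while precursors lay above neurons (0.36, adjusted p = 0.013).

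Among neurons, Igf1r was highest in Hcrt neurons at 239, 308, 434 and 243 CPM, against 116, 125, 121 and 134 CPM in other neurons. The log2 difference was 1.22 (SE 0.143, adjusted p = 1.2e-15, edgeR; 4.19% of genes were called higher), and every library lay above its own other neurons. Avp neurons followed at 180, 225, 182 and 204 CPM (0.66, SE 0.0981, adjusted p = 3.3e-10; 5.93% of genes called higher). Both calls held in every alternative run for them. These 2 types held little Igf1, but Oxt and Gal neurons, also called lower for Igf1, were not called for Igf1r. Their Igf1r differences were 0.16 and -0.15 (edgeR, adjusted p = 0.527 and 0.476). Hcrt nuclei were deeper than other neurons, and against other neurons at or above the median depth, also an alternative chosen after seeing the data, the difference was 1.17.

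Tac1 neurons, which make substance P, were slightly lower for Igf1r at 84.4, 91.2, 103 and 106 CPM (-0.36, adjusted p = 5.9e-05), and this held in all 12 alternatives. Agrp neurons held 95.4, 91.2, 105 and 80.7 CPM (-0.48, adjusted p = 0.0058), which became 0.077 without vehicle 2 and 0.299 without ImP 4. Pmch neurons held 118, 191, 218 and 184 CPM (0.53, adjusted p = 0.0017), which became 0.217 without ImP 3. The receptor was therefore measured in every type tested, including the one richest in the ligand.

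Insr, the insulin receptor, was spread more evenly. Neurons lay at 102, 101, 104 and 96.0 CPM and endothelial nuclei at 652, 213, 234 and 478 CPM from 10, 5, 3 and 8 UMIs. None of the 9 class contrasts was called, the endothelial one being nearest (log2 difference 0.98, SE 0.360, adjusted p = 0.0512). Among neuron types Nts neurons, which make neurotensin, were lower at 77.2, 77.8, 95.2 and 70.7 CPM (-0.33, adjusted p = 0.015), a call that single libraries ended (up to 0.178). No neighbouring pair of classes in the order of Insr means differed past the threshold, the smallest adjusted p being 0.080.

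Igfbp7 had its highest mean levels in mural and endothelial nuclei, and fibroblasts held it too. Mural nuclei (pericytes and smooth muscle) held 909, 667, 1314 and 762 CPM, a log2 difference of 5.76 from the mean of the other classes (SE 0.443, adjusted p = 2.5e-20, edgeR; 3.65% of genes were called higher). Endothelial nuclei held 130, 256, 546 and 1256 CPM from 2, 6, 7 and 21 UMIs (5.15, SE 0.479, adjusted p = 4.7e-16), which overlapped the mural range. ImP 4 thus gave 21 of the 36 endothelial UMIs. Mural markers in the same endothelial nuclei summed to 0, 512, 390 and 2273 CPM, with 0, 4, 2 and 7 of 8 detected, so they too were highest in ImP 4, and their part in the Igfbp7 level was not tested. The endothelial difference was 4.26 without ImP 4, 6.58 without vehicle 1 and 5.96 without vehicle 2, and the mural one 6.86 and 6.62 without those vehicle libraries, all past the threshold. The difference between these 2 classes was 0.54 (SE 0.395, adjusted p = 0.569). Fibroblasts, in no fit, averaged 217 CPM from 17 UMIs in 44 nuclei. Their libraries ran from 123 to 335 CPM, which overlapped the endothelial range. Neurons lay at 8.13, 7.51, 7.54 and 6.59 CPM. Oligodendrocytes and microglia were called lower (-1.67 and -3.20, adjusted p = 0.012 and 0.024) from 34 and 1 UMIs in all, and leaving out vehicle 1 or vehicle 2 ended both calls (adjusted p up to 1).

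**Figure D3:**
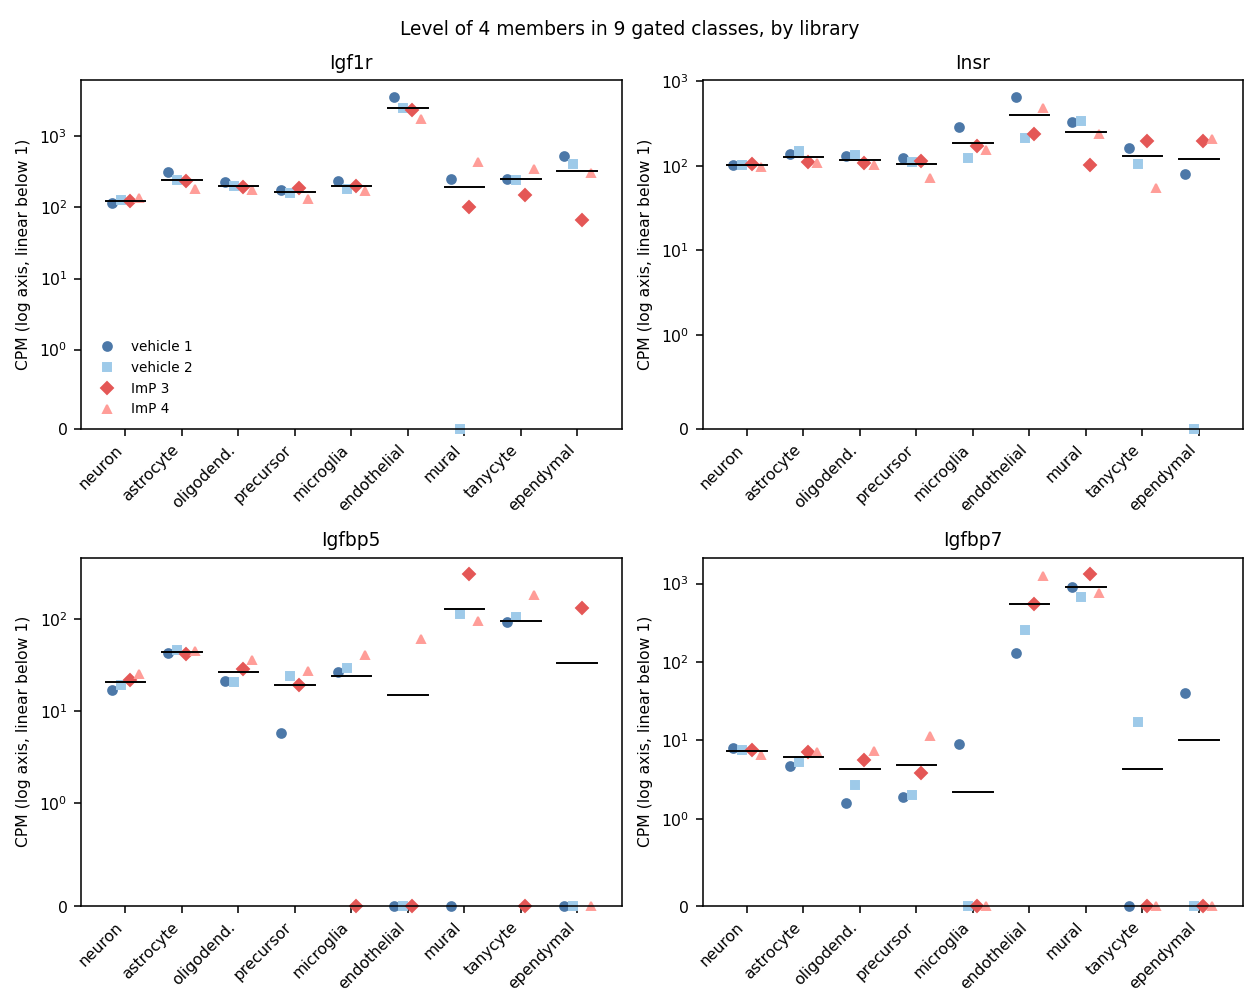
Igf1r, Insr, Igfbp5 and Igfbp7 in CPM (log axis, linear below 1) in 9 gated classes, 1 point per library and a line at the mean. Igf1r in endothelial nuclei lies between 1734 and 3585 CPM, and Igfbp7 in mural nuclei between 667 and 1314 CPM.

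Igfbp5, a binding protein that matrix can hold, was called higher than the mean of the other classes in tanycytes and astrocytes. Tanycytes line the third ventricle and sense nutrients and hormones. They held 92.2, 104, 0 and 179 CPM from 4, 6, 0 and 13 UMIs, against 20.7 CPM on average in neurons (log2 difference from other classes 1.98, SE 0.460, adjusted p = 5.4e-04; 13.5% of genes were called higher), and the adjusted p became 0.064 without ImP 4, while the difference was 3.40 without ImP 3. Tanycytes did not have the highest mean. Mural nuclei held 0, 111, 303 and 95.2 CPM from 0, 1, 3 and 2 UMIs, on average 127 CPM against 94.0 in tanycytes, and the fit did not separate these classes (adjusted p = 0.595). Fibroblasts, in no fit, held 1326, 112, 81.7 and 61.6 CPM from 8, 1, 3 and 2 UMIs, and all 8 in vehicle 1 came from 1 nucleus. Astrocytes held 43.0, 45.4, 41.2 and 44.4 CPM, all above every neuron value, but their call (0.68, adjusted p = 0.035) was lost without vehicle 1 or vehicle 2 and with another normalization, and the difference was 1.94 without ImP 3 and 1.81 without ImP 4. In all, 9 of 36 tests of members over 9 classes were called, against 29.6% of the tests of all genes.

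In neurons, the Vip gate gave the highest Igfbp5 level. Vip encodes vasoactive intestinal peptide, made in the suprachiasmatic nucleus, the brain's clock, among other places. Its 15, 21, 23 and 41 nuclei held 6, 10, 11 and 20 Igfbp5 UMIs, or 105, 116, 112 and 113 CPM, against 16.9, 18.8, 21.5 and 24.6 CPM in other neurons. Their median depth was 3602, 3823, 2949 and 3975 UMIs, against 4793, 4115, 3714 and 3671.5 in all neurons, and no comparison at matched depth was run. The type had fewer than 20 nuclei in 1 library and was therefore in no fit. An exact paired permutation test gave a two-sided p of 0.125, the smallest possible; the type was chosen after its values were seen. Igf1 in the same nuclei was 35.03, 11.6, 50.8 and 17.0 CPM, from 2, 1, 5 and 3 UMIs.

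Lower Igfbp5 was called in Hcrt (-2.82, adjusted p = 0.0037), Nts (-0.86, 0.0050), Trh (-0.91, 0.017), Oxt (-1.28, 0.023) and Hdc neurons (-1.02, 0.034), all by edgeR. Hcrt neurons held 11.4, 0, 0 and 0 CPM from 2 UMIs. Each of these 5 calls was lost without at least 1 library, with adjusted p up to 0.058, 0.332, 0.113, 0.193 and 0.178 in that order. Igfbp5 thus ran from near 0 in orexin neurons to above 100 CPM in Vip neurons.

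Igfbp3, the main carrier of IGFs in blood, was led by oligodendrocyte precursors at 21.1, 32.4, 30.5 and 9.63 CPM from 11, 16, 16 and 5 UMIs. Neurons held 2.40, 2.59, 2.67 and 3.46 CPM. Precursors were above neurons in 4 of 4 libraries (exact paired permutation p = 0.125, the smallest possible). Igfbp3 had 0 UMIs in microglia, endothelial, mural, fibroblast, tanycyte and ependymal nuclei. Those classes held 361, 56, 44, 44, 94 and 33 nuclei in that order, too few for zeros to set them below neurons. Igfbp2 and Igfbp4 were scarce, with 33, 40, 107 and 133 and with 37, 45, 54 and 87 UMIs in kept nuclei. Astrocytes held 4.20 CPM of Igfbp2 on average against 1.09 in neurons. Higher means were seen in fibroblasts, at 124 CPM (0 to 354, from 15 UMIs), and pituitary nuclei, at 21.0 CPM (0 to 81.5, from 9 UMIs). Both rest on few UMIs and were in no fit.

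ImP was then compared with vehicle to ask whether the IGF system moved with the metabolite. Over 8 groups of nuclei, 43 member tests gave 0 calls (edgeR quasi-likelihood test, Benjamini-Hochberg over all genes), where 0.0525% of all gene tests were called. By group, 0.0174% of genes were called in GABAergic and 0.0463% in glutamatergic neurons, 0.561% in precursors, 0.033% in microglia and 0% in neurons as a whole, astrocytes and oligodendrocytes. At an unadjusted p under 0.05 there were 12 of the 43. The 8 groups overlap, as all kept nuclei hold every class and neurons hold the GABAergic and glutamatergic groups. The 12 thus count some members more than once, such as Igfbp5 in all kept nuclei, neurons and GABAergic neurons. The share of all genes at this cut over the 8 groups was not computed. DESeq2, which gave an adjusted p for only 27 of the 43, called 1, Igfbp2 in all kept nuclei. Of all genes, edgeR called 1 of 21287 in all kept nuclei (0.0047%) and 0 of 20396 in neurons, with 1739 and 1472 at an unadjusted p under 0.05, where DESeq2 called 375 and 272. In all kept nuclei both ImP libraries lay above both vehicle libraries for Igfbp2, Igfbp3, Igfbp4, Igfbp5 and Igfbp7 and below them for Insr. Of all genes tested there, 18.9% lay above and 21.3% below in this way, or 40.2% in all, against 6 of 8 members. In neurons the first 4 of these members lay above, where 17% of all genes did and 37.9% lay on either side. The members' median log2 difference was 0.30 in all kept nuclei against -0.01 over all genes.

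Igfbp2 came nearest. It lay at 0.694, 0.827, 2.20 and 2.60 CPM in all kept nuclei and at 0.520, 0.622, 1.44 and 1.80 CPM in neurons, so both ImP libraries were above both vehicle libraries. The log2 difference was 1.66 (SE 0.231, adjusted p = 0.292) and 1.51 (SE 0.281, adjusted p = 0.292). DESeq2 gave an adjusted p of 0.0031 in all kept nuclei, and edgeR without ImP 4 gave 0.026 there and without ImP 3 gave 0.011 in neurons. Keeping nuclei with at most 1% mitochondrial UMIs brought the differences to 1.02 and 0.94.

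Fibroblast markers were higher in both ImP libraries too. Their summed level, with 8 of 8 detected, was 26.9, 29.1, 46.8 and 51.5 CPM in all kept nuclei and 18.4, 18.9, 26.3 and 24.8 CPM in neurons. Fibroblast nuclei themselves held 0, 1, 13 and 1 Igfbp2 UMIs. With fibroblast nuclei left out the difference was 1.60, and with pituitary nuclei left out it was 1.65. Pituitary markers in neurons summed to 14.8, 7.04, 27.2 and 1625 CPM, with 7 or 8 of 8 detected, and were thus far higher in ImP 4 than in the other libraries. The part of fibroblast or pituitary RNA in the neuronal values was not tested.

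**Figure D4:**
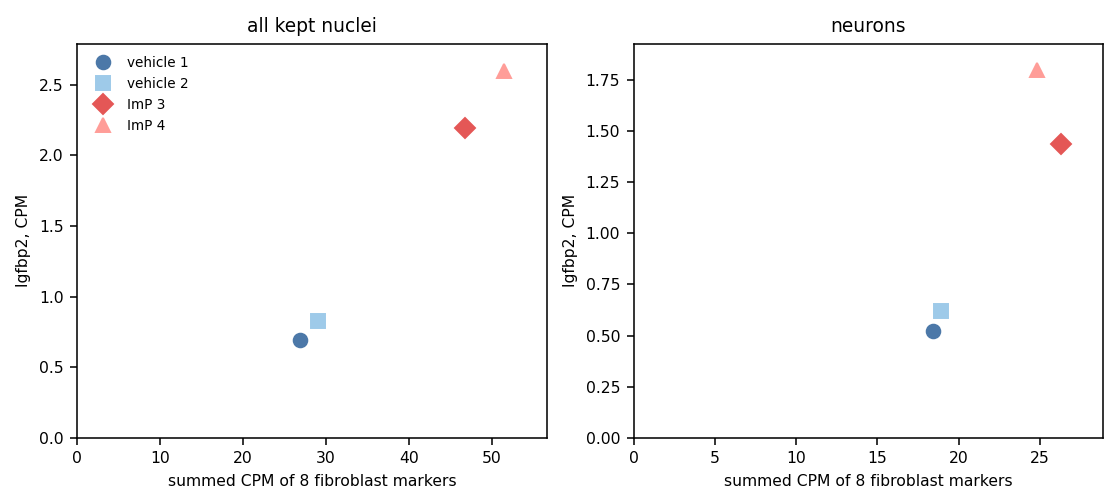
Igfbp2 in CPM against the summed CPM of 8 fibroblast markers in all kept nuclei (left) and in neurons (right), 1 point per library, both axes from 0. The 2 ImP libraries lie above the 2 vehicle libraries on both axes, with Igfbp2 at 2.20 and 2.60 CPM against 0.694 and 0.827 in all kept nuclei.

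Igfbp5 had higher values in both ImP libraries without passing the test. Its neuronal level was 17.1, 19.0, 21.7 and 25.01 CPM (0.39, SE 0.109, adjusted p = 0.396) and GABAergic neurons 14.0, 17.8, 19.9 and 24.6 CPM (0.51, SE 0.160, adjusted p = 0.433). Without ImP 3 these gave adjusted p = 0.022 and 0.0011. Of all genes tested in GABAergic neurons, 37.3% lay wholly on one side. In astrocytes the Igfbp5 difference was -0.04 (SE 0.223). The difference of the ImP ratio between GABAergic and glutamatergic neurons was called for 0 of 8 members and for 0.00586% of genes. Of 34954 neurons, 22408 met neither definition and were in neither group.

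In neurons the receptors differed little between groups, Igf1r by 0.10 (SE 0.0818) and Insr by -0.01 (SE 0.0652) on the log2 scale, and neither passed the test. Astrocytes held 314, 240, 236 and 182 CPM of Igf1r (-0.40, SE 0.184, adjusted p = 0.460). Their Insr was 138, 149, 112 and 107 CPM (-0.38, SE 0.170, adjusted p = 0.444). Oligodendrocytes likewise held less Insr in both ImP libraries, at 129, 132, 107 and 103 CPM (-0.34, adjusted p = 0.456). None of these passed the test, and 40.2% of all genes tested in astrocytes and 42.5% in oligodendrocytes lay on one side. Neuronal Igf1 differed by 0.15 (SE 0.193). Igf1 in Pmch neurons was 334 and 310 CPM with vehicle, above the 263 and 278 CPM with ImP, a description with no test. The share of all genes separated in this way was not computed for Pmch neurons, and in all neurons it was 37.9%. Pmch nuclei were also deeper with vehicle, at median UMIs of 8294 and 6449 against 5894 and 5713.5.

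**Figure D5:**
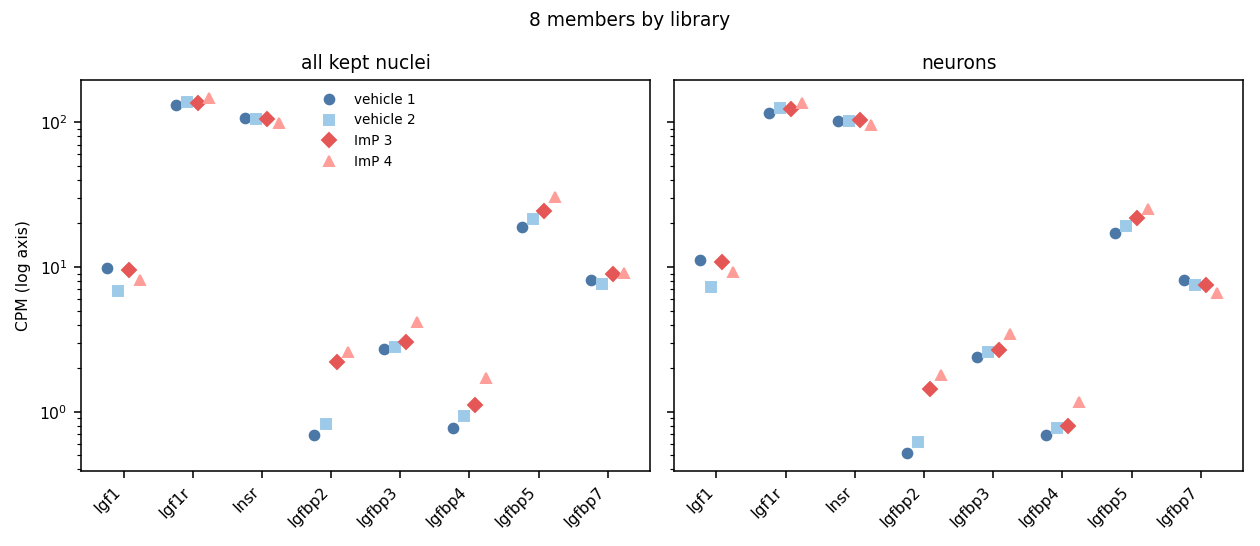
Levels of 8 members in CPM on a log axis in all kept nuclei (left) and neurons (right), 1 point per library. In all kept nuclei Igfbp2 is at 0.694 and 0.827 CPM for vehicle against 2.20 and 2.60 for ImP, while Insr lies between 98.2 and 106 CPM in all 4.

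The wider pathway was read through 64 genes in 7 lists, from other ligands and binding protein cleavage to the growth hormone arm, adaptors, PI3K and Akt, mTORC1 and MAP kinases. ImP against vehicle gave 0 calls in 391 edgeR tests of these genes, with 35 at an unadjusted p under 0.05. These tests come from the same overlapping groups. Counts over all genes at this cut, and by DESeq2, are given above for all kept nuclei and neurons only, so the 35 are not read as a result about the pathway. DESeq2 gave an adjusted p for 262 of them and made 2 calls, both of the protease Htra1, in all kept nuclei and in neurons. Over 9 classes 101 of 324 tests were called, 80 higher and 21 lower, a share near the 29.6% over all genes. Over 14 neuron types 83 of 801 were called, 49 higher and 34 lower, against 7.29% over all genes. In endothelial nuclei, where Igf1r led, the 3 largest differences were Grb14 (2.45, adjusted p = 2.3e-04) and Foxo1 (2.28, 0.043), with Foxo3 not called (2.25, 0.092). Grb14 is an adaptor that dampens insulin receptor signalling and the FoxO factors are switched off by Akt.

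In mural nuclei, where Igfbp7 led, the 2 largest were Igf2r, the clearance receptor of IGF-2 (2.86, adjusted p = 9.6e-05), and Eif4ebp2, a brake on translation (2.28, 0.010). In tanycytes, where Igfbp5 was called higher, the 3 largest were Deptor, an mTOR inhibitor (5.74, adjusted p = 3.4e-27), Foxo1 (3.03, 1.3e-07) and Irs1, which was not called (2.70, 0.127). In precursors, where Igfbp3 led, they were Irs1 (3.03, 9.8e-05), the growth hormone signal carrier Stat5b (2.15, 1.0e-06) and Grb14 (1.92, 1.4e-10). All these values come from the same edgeR fit over classes.

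In Pmch neurons 8 of 58 tested genes were called, 5 higher and 3 lower, where 9.96% of all genes were. By size the higher ones began with Deptor (3.59, adjusted p = 2.0e-157), Eif4ebp1, a brake on translation (3.29, 0.049), Socs2, a brake on growth hormone signalling (1.74, 7.9e-11), and Pik3r1, a regulatory subunit of PI3K (1.67, 3.3e-26). Pappa, which cleaves binding proteins, was lower in Pmch neurons (-2.13, adjusted p = 0.0013). In Avp neurons 8 of 57 were called, 4 in each direction, where 15.1% of all genes were. In Hcrt neurons 7 of 57 were called, where 11% of all genes were. Stat5b (1.67, adjusted p = 1.1e-34), Deptor (1.27, 5.6e-05) and the growth hormone receptor Ghr (1.15, 1.2e-17) were higher there. Foxo1 (-3.43, adjusted p = 0.0082), Grb14 (-1.29, 0.0013), the receptor adaptor Irs1 (-1.07, 0.022) and Lrp1 (-0.80, 0.047) were lower. These genes were singled out after their values were seen.

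Across 23 classes and neuron types the genes most like each member in mean log2(CPM + 1) were named by Pearson correlation, a description over groups that share libraries. For Igf1 they were Htr1d (0.937), Kcng3 (0.929) and Gm57076 (0.918). For Igf1r they were Fmo2 (0.886), Mecom (0.884) and Tmem95 (0.863), and for Igfbp7 Gjc1 (0.941), Tcf15 (0.923) and Car4 (0.921). Insr was most like Akr1a1 (0.931), Igfbp3 most like Sema3d (0.863) and Igfbp5 most like Tomm7 (0.889). Proca1 (0.844) and Chd1l (0.847) led for the scarce members Igfbp2 and Igfbp4.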

How the data were processed

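The deposited files hold raw UMI counts per gene and barcode for 4 libraries, produced by the authors in Cell Ranger 8.0.1 on build GRCm39. Seurat 5.0.0 is also named; tools and build are per the submitters' processing notes. The sources used here do not give annotation release, intron handling or further filters. Barcodes numbered 11255, 13723, 15471 and 16348, with 48060194, 49291659, 49508252 and 51945297 UMIs. Nuclei with at least 500 genes and at most 5% mitochondrial UMIs were kept. A class needed a UMI in at least 3 of its 8 markers and a lead of at least 2 over every other class; 11.4%, 14.9%, 17.4% and 17.9% stayed unassigned. No doublet caller was run. Nuclei of mixed markers fell among the unassigned only where no class had this lead, so others stayed within a class. The share of nuclei at the minimum of markers or lead ran from 15.2% of neurons to 69.1% of tanycytes, with 44.9% of astrocytes and 51.8% of endothelial nuclei. Neuron types needed a minimum of UMIs of 1 transcript. GABAergic neurons needed at least 2 UMIs of Slc32a1, Gad1 and Gad2 together, and at least 2 times those of Slc17a6, Slc17a7 and Slc17a8. Glutamatergic neurons needed the reverse.

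UMIs were added up by library and class, and these sums were tested with edgeR 4.0.16 (R 4.3.3; quasi-likelihood, TMM, minimum count 10, Benjamini-Hochberg over all genes, threshold 0.05), with DESeq2 1.42.0 as an alternative. ImP was tested in groups with at least 20 nuclei in every library, classes with at least 5 nuclei and library as a block. The ImP fit in neurons and astrocytes and the Pmch type fit were run on simulated counts, while the fit over classes and the interaction fit were not. There were 2 residual degrees of freedom per gene in each ImP fit, and in every fit edgeR pooled information on spread over all genes. All members were named; pathway genes by the largest difference in the class leading for a member by fitted difference, or by mean where it was not tested (1 result is not reported here); 3 most similar genes per member. Intervals and floors cover counting error only. The members and lists were chosen with earlier results of these data known.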

Additional observations from a re-analysis of the deposited data

Results flagged for a closer look

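Both ImP libraries lay above both vehicle libraries for Igf1r in glutamatergic neurons (112, 115, 116 and 121 CPM) and below them in astrocytes and oligodendrocytes, where 35.5%, 40.2% and 42.5% of all genes tested lay on one side in these 3 groups. The log2 difference between ImP and vehicle was higher in glutamatergic neurons by 0.47 than in astrocytes and by 0.30 than in oligodendrocytes. For Igfbp7 both ImP libraries lay above vehicle in oligodendrocytes (1.60, 2.70, 5.68 and 7.33 CPM, from 3, 5, 12 and 14 UMIs) and below it in GABAergic neurons (6.13, 5.42, 4.32 and 4.01 CPM), a gap of 2.00 on the log2 scale. In the same oligodendrocytes mural markers summed to 17.0, 11.4, 22.3 and 27.2 CPM (6 or 7 of 8 detected) and fibroblast markers to 15.4, 11.4, 20.8 and 45.6 CPM (7 or 8 of 8), both higher in both ImP libraries, and their part in the Igfbp7 values was not tested. These differences between classes were not tested, and each of the underlying comparisons missed the threshold.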

How the results depend on the processing

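Of 543 refits of 50 member results, 460 kept their direction and their side of the threshold, 62 lost and 10 gained a call, and 11 turned in sign. For ImP, the number of members called was 0 in each of the 8 groups, and rose to 1 by DESeq2 and 2 with the replicate block in all kept nuclei, to 2 with the block in neurons and to 1 with it in GABAergic neurons. With the block these were Igfbp2 (adjusted p = 0.0098 in all kept nuclei and 0.011 in neurons) and Igfbp5 (0.016 in all kept nuclei, neurons and GABAergic neurons). Leaving out 1 library gave 0 to 1, 0 to 2 and 0 to 1 in those groups (Igfbp2 without ImP 4 in all kept nuclei; Igfbp2 and Igfbp5 without ImP 3 in neurons; Igfbp5 without ImP 3 in GABAergic neurons). The block joined libraries whose names share a start; no label read here says what the start marks, and the within-group differences of such libraries correlated at 0.337 in all kept nuclei and 0.352 in neurons. With it, calls over all genes went from 1 to 790 in all kept nuclei and from 0 to 687 in neurons. Over all alternatives the calls ran from 0 to 790 in all kept nuclei (1 as reported), 0 to 769 in neurons (0), 3 to 769 in GABAergic neurons (3), 1 to 336 in glutamatergic neurons (7), 0 to 491 in astrocytes (0), 0 to 432 in oligodendrocytes (0), 0 to 145 in precursors (45) and 0 to 55 in microglia (1).

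Member calls over classes, 9 of 36 as reported, were 14 with RLE size factors, 5 of 15 with the stricter gate, 19 of 40 with the looser gate and 3 of 15 with at most 1% mitochondrial UMIs, where fewer tests were run in 2 of these, and 7 to 10 without 1 library. Over neuron types, 17 of 112 became 11 of 88 without the top 10% of UMIs, 4 of 55 with at most 1% mitochondrial UMIs, and 9 to 12 without 1 library. Signs turned for ImP in all kept nuclei for Igf1 (at most 1% mitochondrial UMIs -0.052; -0.13 to 0.37 without 1 library) and Insr (-0.083 to 0.00010 without 1 library), and in neurons for Igf1 (-0.071 at most 1% mitochondrial UMIs; -0.11 to 0.46 without 1 library) and Insr (0.0087 with the stricter gate; -0.053 to 0.041 without 1 library). They also turned for precursor Igf1r (0.077 at most 1% mitochondrial UMIs) and Cartpt Igf1 (-0.13), given above. The cause was not tested for any of these except Cartpt, where the shared nuclei were removed. With 29 to 58 Igf1r UMIs and 2 to 21 Igfbp7 UMIs per library in endothelial nuclei, depth limits those levels.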
